A study of Caenorhabditis elegans with 18 samples.

Results

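The regions described here are assembled loci that join several genes: loci whose deposited entry names 2 or more reference genes. They were taken from the event lists of 18 RNA-seq libraries of Caenorhabditis elegans embryos by reading the reference-gene column of every entry, with no use of expression values. Over all libraries, 27312 of 348040 loci met this rule, 301500 named a single gene, and the rest named none. The 27312 joined loci correspond to 7610 distinct gene sets, where a set is the exact combination of names that a locus carries.

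The libraries were 3 each from 6 strains: the double mutant uaf-1(n4588) with rbm-5(n5119) (called the n5119 double mutant), the double mutant uaf-1(n4588) with rbm-5(n5132) (the n5132 double mutant), uaf-1(n4588), rbm-5(n5119), rbm-5(n5132), and N2, the wild type. The labels give no other allele, and all strains were kept at the same constant temperature. Eggs came from bleached synchronized adults, and libraries were made from total RNA. The labels number the 3 libraries of a strain without saying whether they came from separate cultures, so p-values measure only the spread between these libraries.

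Genes in C. elegans often lie close together on the same strand, and many of them form operons, in which 1 precursor RNA spans several genes and is cut into separate messages by trans-splicing. Other genes lie inside the introns of a host gene, as many snoRNA and piRNA (21ur) genes do. An assembler that works from short reads can place such neighbours in 1 locus. UAF-1 is the large subunit of U2AF, which recognises 3′ splice sites, and RBM-5 is an RNA-binding protein that the title of the series relates to splicing that depends on UAF-1.

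The unit is FPKM, a fragment count scaled by transcript length and by the mapped total of each library. Only FPKM were at hand, so read depth is unknown. Each locus lists transcript starts and ends, each with an FPKM. Not every gene of a joined locus has a start and an end of its own in the list. The start FPKM of a joined set therefore need not cover all of its genes. The libraries listed 53772–55828 entries in 18997–19730 loci. Summed start FPKM was higher in the replicate 1 libraries (1250844–2072816) than in replicates 2 and 3 (803936–1136360). Of the markers of maternal embryo RNA, summed start FPKM was 274–1952 per library, and of zygotic embryo markers 184–374. These sums leave out genes that a library did not list: oma-1 was listed in 9 libraries, nhr-25 in 2, and mex-5, glp-1 and hlh-1 in 17 each. For 8 adult or larval markers (yolk, sperm and cuticle genes) the sum was 0.184–3.76, with msp-3 and msp-19 not listed in any library and spe-11 and col-19 above 0 in 3 and 4 libraries.

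A library held 1230–1780 joined loci (median 1537), which made up 6.56–10.0% of the 17741–18748 loci that name any gene. Most joined loci named 2 genes (978–1371 per library), 177–297 named 3, and 73–141 named 4 or more. The largest joined 17 genes, in replicate 1 of the n5132 double mutant. Between 2834 and 4198 genes per library were listed within joined loci.

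Over all libraries the joined sets carried 11340 gene names, of which 7799 were protein-coding, 1336 piRNA, 927 ncRNA, 624 pseudogene, 136 snoRNA and 75 tRNA genes, and 265 could not be placed in the annotation. Names were placed by symbol (9631), by sequence name (1203) or by RefSeq symbol or synonym (241), and 82 matched more than 1 gene. In 10 of the 7610 sets the genes lay on both strands or off the strand of the locus, so nearly all sets joined genes on 1 strand.

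The sets fell into a few layouts. Tandem coding genes, which follow one another on a strand without overlap, made 3955 sets and 10677 loci. Sets of 1 coding gene with noncoding genes or pseudogenes were fewer (2505) but gave more loci (11512). In 718 of them a single noncoding gene or pseudogene lay wholly within the coding gene. Overlapping coding genes made 524 sets, noncoding genes or pseudogenes alone 310, and sets with an unplaced gene and under 2 placed coding genes 316. The median over sets of the mean start FPKM was 33.9 for tandem coding genes, 21.1 for overlapping coding genes, 8.14 for 1 coding gene with noncoding genes, and 0.966 for noncoding genes alone.

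Joined loci listed more start FPKM than single-gene loci. The median summed start FPKM per locus was 7.65–18.5 in joined loci across libraries and 0.428–2.07 in single-gene loci. In each of the 18 libraries the joined loci were higher, by 3.38 ± 0.41 on the log2 scale (SD, n = 18; exact sign-flip permutation test over libraries, two-sided, p = 7.63e-06, the smallest it can give). Joined loci also had more start entries per locus (1.33–1.40) than single-gene loci (1.10–1.12), and a smaller percentage of starts listed at 0 (26.5–32.0% against 30.9–38.8%). Both differences had the same direction in all 18 libraries and the same p of 7.63e-06, and adjustment over the 6 such tests left it unchanged. These tests were chosen after seeing the data.

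Recurrence of the same set was uneven. Of 7610 sets, 3620 (47.6%) appeared in a single library, 906 in 9 or more and 214 in all 18. Layouts differed in this count: 154 of the 2505 sets of 1 coding gene with noncoding genes were listed in all 18 libraries, as were 32 of the 310 noncoding sets, 11 of the 3955 tandem coding sets and 4 of the 524 overlapping sets. These shares were not tested. Libraries of the same strain shared a median of 706 sets, 49.4% of the smaller and 44.3% of the larger list. Libraries of different strains shared 687, 48.2% of the smaller and 42.6% of the larger list. Within a strain, 478–536 sets were listed in all 3 libraries, and 0–3 of these were listed in no other strain. The recurrence of joined sets across libraries is plotted by layout.

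**Figure D1:**
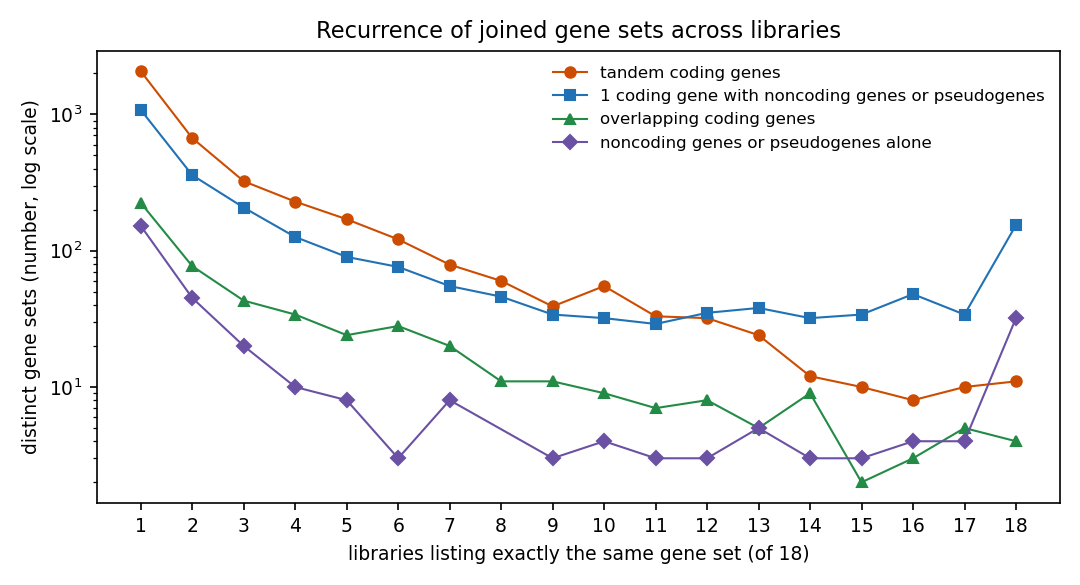
Number of distinct joined gene sets (vertical axis, log scale) against the number of libraries that list exactly that set (horizontal axis, 1 to 18), with 1 line per layout of the genes; sets with an unplaced gene are not drawn. Counts fall from 1 library onward. At 18 libraries sets of 1 coding gene with noncoding genes climb again to 154, and sets of noncoding genes or pseudogenes alone to 32, against 11 tandem coding sets.

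Which neighbouring coding genes were joined went with the distance between them. The annotation holds 10255 pairs of same-strand coding neighbours without overlap, with a median gap of 905 bases. The 2693 pairs joined in any library had a median gap of 295 bases, and the 336 pairs joined in 9 or more libraries one of 171.5 bases. Where both genes of a pair were listed, 31.0 ± 5.8% of pairs with a gap of 0–49 bases were joined in a library (SD, n = 18 libraries), 30.0 ± 4.8% at 50–99 bases and 25.1 ± 5.7% at 100–149 bases. The percentage was 15.6 ± 4.2% at 150–199 bases, 10.5 ± 2.7% at 200–299 bases and 8.80 ± 2.4% at 300–499 bases. Beyond 5000 bases it was 1.98 ± 0.77%. Gaps under 300 bases gave 21.4 ± 4.2% and wider gaps 4.18 ± 0.90%, with the narrower class higher in all 18 libraries (exact sign-flip permutation test, p = 7.63e-06, the smallest it can give).

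**Figure D2:**
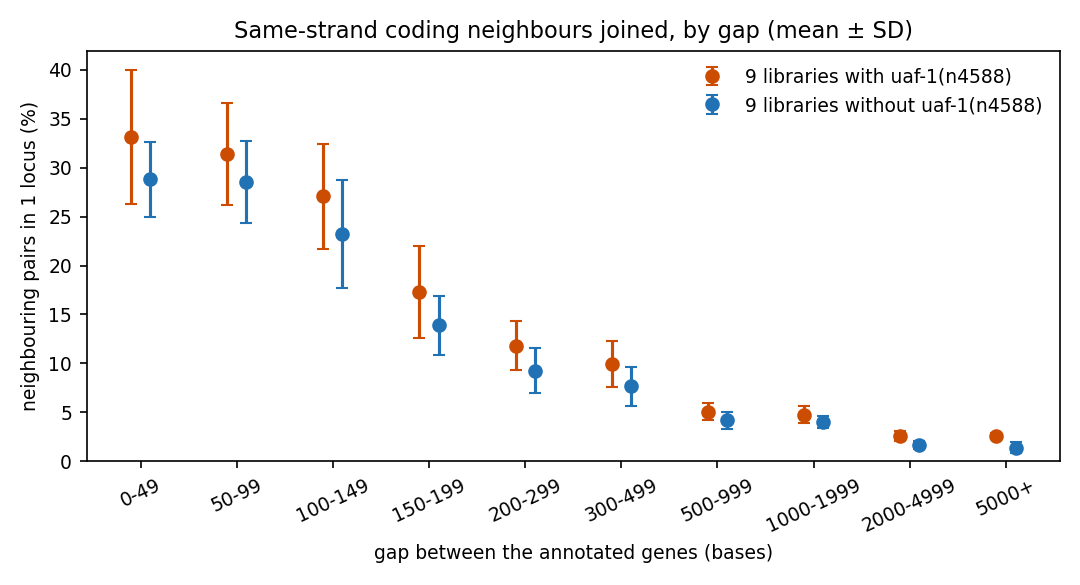
Percentage of same-strand neighbouring coding genes listed in a library that share 1 assembled locus (vertical axis) by the gap between the annotated genes in bases (horizontal axis). Points are means over 9 libraries with uaf-1(n4588) and 9 without it and bars are SD; over all libraries the mean drops to 1.98% at 5000 bases or more, against 31.0% at 0–49 bases.

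Joined loci of coding genes seldom had the same FPKM at the start and at the end. Among loci with 1 start and 1 end, both of at least 1 FPKM, the start and the end had the same FPKM, within 1%, in 86.8 ± 0.69% of single-gene loci (mean over 18 libraries ± SD). In loci of tandem coding genes this was so for 5.69 ± 1.6%, and in overlapping coding genes for 7.92 ± 4.0%. Loci of 1 coding gene with noncoding genes had equal start and end in 77.0 ± 2.4%. Tandem coding loci and loci of 1 coding gene with noncoding genes were each lower than single-gene loci in all 18 libraries (exact sign-flip permutation test, p = 7.63e-06, the smallest it can give). In a tandem locus the start and the end can lie in different genes and so belong to different transcripts. For these loci the test therefore adds nothing to the percentages.

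The 8005 loci that join 2 tandem coding genes show the form of this difference. In a median of 63.2% of them per library the locus had 1 start, in or before the first gene, and 1 end, in or after the last gene. A start lay past the first gene in 10.6–18.9%, and an end before the last gene in 11.7–23.5%. Of 3172 such loci with 1 start and 1 end of at least 1 FPKM, 115 had equal start and end. The start had over 2 times the FPKM of the end in 35.2–50.4% of these loci per library, the reverse held in 23.4–34.6%, and the median absolute log2 ratio was 1.95. Of 6522 splicing events listed in 2-gene tandem loci, 11 crossed the gap between the genes. None of the 5 measures tested (the forms of start and end, equal values and the log2 ratio) passed for uaf-1(n4588) or for the rbm-5 mutations (exact permutation tests within backgrounds, each adjusted p = 0.826 over 10 tests).

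**Figure D3:**
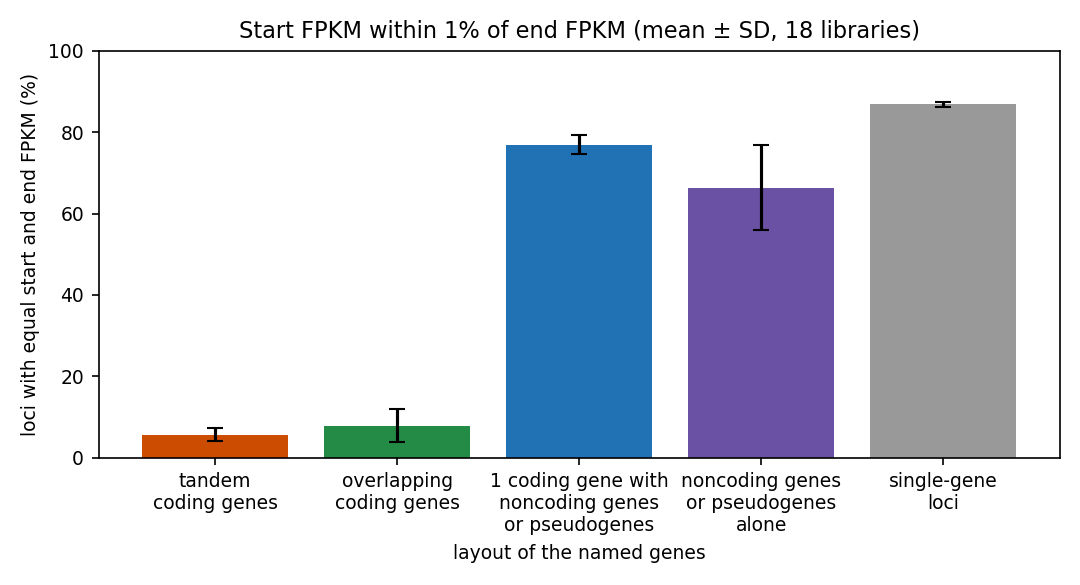
Percentage of loci whose start FPKM lies within 1% of their end FPKM (vertical axis), by the layout of the genes named (horizontal axis), for loci with 1 start and 1 end of at least 1 FPKM. Bars are means over 18 libraries and error bars SD; tandem coding loci stand at 5.69% and single-gene loci at 86.8%.

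The 10 joined sets with the highest mean start FPKM among those listed in all 18 libraries included several genes of translation, protein turnover and the cytoskeleton with a downstream neighbour. The highest was ZK1010.2 with ubq-2, a ubiquitin gene, on chromosome III (WBcel235 positions 12975068–12978523, minus strand, gap 100 bases), with a start of 1433–7832 FPKM (median 3197) and an end of 21.9 ± 4.7 FPKM (SD, n = 18). Next came rla-2, an acidic ribosomal protein gene, with agt-1, a DNA alkyltransferase gene, 12 bases apart on chromosome IV. Its start averaged 2213 FPKM and its end 49.2 FPKM. The tubulin gene tba-1 was joined in every library to drsh-1, which encodes the Drosha nuclease of microRNA processing, across 56 bases on chromosome I, with a mean start of 1034 FPKM and a mean end of 30.6 FPKM. In these 3 loci the start lay in the upstream gene and the end in the downstream gene in all 18 libraries, and the median ratio of start to end was 139, 35.6 and 35.0.

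Other sets of this group behaved differently. The mitochondrial ADP/ATP carrier gene ant-1.1 and kel-3 lay 167 bases apart on chromosome III. Their summed start and summed end were equal at 2156 ± 439 FPKM (SD, n = 18), with an end listed in ant-1.1 in all 18 libraries and in kel-3 in 15. The ribosomal protein gene rpl-29 with B0513.2 had a higher end (199 ± 68 FPKM) than start (143 ± 61 FPKM), and sdz-33 with the F-box gene fbxb-24, 441 bases apart, had 149 ± 40 FPKM at the start and 104 ± 30 FPKM at the end. Y46G5A.7 and Y46G5A.39 were joined in all 18 libraries although 1322 bases separate them, with a start of 197 ± 65 FPKM and an end of 5.32 ± 2.5 FPKM. Y38A10A.7 with smut-1, 11 bases apart, had a mean start of 181 FPKM. H28O16.1 with the piRNA gene 21ur-12279 had 467 ± 70 FPKM at the start and 486 ± 60 FPKM at the end. C16D2.2 with the snoRNA gene C16D2.4 ranged most, at 0–25483 FPKM with a median of 50.9, and was listed at 0 in 4 libraries.

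The largest sets found in at least 9 libraries had 6 genes each, and 4 of the 5 were dominated by piRNA genes of chromosome IV. The acyltransferase gene oac-56 with 5 piRNA genes was listed in all 18 libraries at a median start of 2.10 FPKM. K08B4.2 with 5 piRNA genes was listed in 13 libraries at 99.5–313 FPKM (median 229). The pseudogene Y116A8C.199 with 5 piRNA genes was joined in all 18 libraries and listed at 0 in 15. The chemoreceptor-family gene str-153 with Y9C9A.109 and 4 piRNA genes was also joined in all 18 and listed at 0 in 13. The fifth was the run of collagen genes from col-166 to col-171 on chromosome X, listed in 10 libraries at a start of 31.8–133 FPKM. These collagen genes resemble each other, and how reads that match several copies were assigned is not given in the sources used here.

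Textbook operons were joined unevenly. Of 10 gene groups taken from the literature on C. elegans operons and shared first exons, 8 had at least 2 members in 1 locus in some library, 3 in 9 or more libraries, and 2 in none. The last count includes unc-17 with cha-1, which were never both listed in a library. The group of lir-2, lir-1 and lin-26, the last a zinc-finger gene of epidermal fate, had at least 2 members joined in 17 libraries and all of them in 2. The fibrillarin gene fib-1 and the ribosomal protein gene rps-16, 109 bases apart, were joined in 14 libraries. As an exact set in 12 of these, their start was 371–605 FPKM, while the end was listed at 0 in each. The proton pump genes vha-3 and vha-11 were joined in 14 libraries across 892 bases. Their fellow subunit gene vha-1 was joined to vha-2 in 3 libraries, but to R10E11.6 without vha-2 in 14.

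Other textbook groups were joined in few libraries. The Polycomb gene mes-6 and the cyclin kinase subunit gene cks-1 shared a locus in 3, the succinate dehydrogenase gene mev-1 and the cell death inhibitor ced-9 in 3, lin-15B and lin-15A in 2, and the GAPDH genes gpd-2 and gpd-3 in 1. Any member of these groups was listed in 6, 7, 17 and 8 libraries, in that order. The mes-6 and mev-1 pairs were joined wherever both genes were listed, whereas lin-15B and lin-15A were listed separately in 10 libraries. The copies gpd-2 and gpd-3 are close to identical, so their values are uncertain. The acetylcholine receptor genes deg-3 and des-2 were listed separately in 14 libraries and joined in 0. The genes unc-17 and cha-1 share a first exon and act in acetylcholine handling. Either was listed in 6 libraries but both in none, so whether they are joined could not be seen. No joined set named rbm-5, uaf-1 or unc-93. The splicing reporter gene tos-1 was joined to K07B1.7 in 1 library, at a start of 73.5 FPKM and an end of 28.9 FPKM.

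A single locus weighed on the joined share of the signal. Joined loci held 16.1–41.0% of the summed start FPKM of all loci naming a gene (median 20.4%). The locus naming C01F6.9 with icln-1 and, in most libraries, lpl-1 on the minus strand of chromosome IV had the highest start of all joined loci in 12 of 18 libraries. Its start exon spanned 102 bases (WBcel235 positions 9096128–9096229), the same in 17 libraries, and lies upstream of icln-1. The start value was 459192 FPKM in replicate 1 of the n5119 double mutant, 208991 in replicate 1 of rbm-5(n5119) and 144232 in replicate 1 of N2. In the other libraries it was 5524–18364 FPKM, except 34.0 in replicate 1 of uaf-1(n4588), whose locus also named cyp-31A1 and started elsewhere. The ends of the locus were listed at 33.0–149 FPKM. Without it, the joined share of start FPKM was 13.1–24.2%.

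The number of joined loci was compared between strains. The n5119 double mutant had 1339, 1644 and 1780 joined loci in replicates 1 to 3, the n5132 double mutant 1739, 1702 and 1733, and uaf-1(n4588) 1446, 1574 and 1538. The strain rbm-5(n5119) had 1230, 1600 and 1388, rbm-5(n5132) 1536, 1329 and 1391, and N2 1273, 1560 and 1510. The n5132 double mutant was the only strain whose 3 libraries all lay above those of every strain without uaf-1(n4588), and the n5119 double mutant spread across the range of the others.

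**Figure D4:**
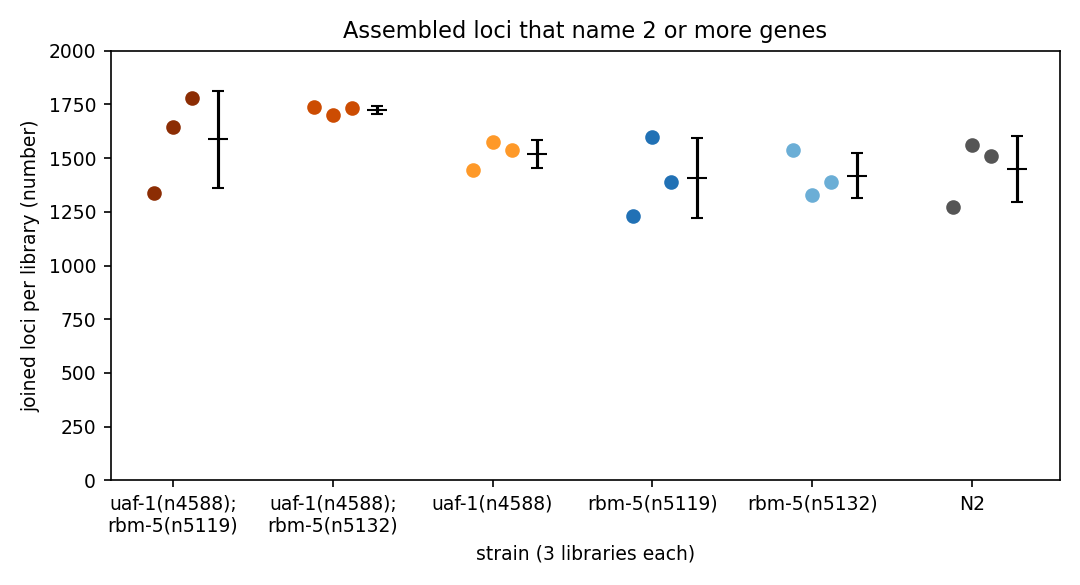
Number of joined loci per library (vertical axis) for the 6 strains (horizontal axis), with 1 point per library and, beside them, the mean ± SD of 3 libraries. The 3 libraries of the n5132 double mutant sit between 1702 and 1739, and those of N2 between 1273 and 1560.

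Libraries with uaf-1(n4588) averaged 1611 ± 149 joined loci and libraries without it 1424 ± 133 (SD, n = 9 each), a difference of 186 (exact permutation test within the 3 rbm-5 backgrounds, two-sided, p = 0.0198, adjusted p = 0.0593 over 6 tests). As a share of gene-naming loci the values were 8.94 ± 0.92% and 7.71 ± 0.80% (difference 1.23 percentage points, p = 0.014 and adjusted p = 0.0593 in the same exact test). Neither passed the adjusted threshold of 0.05 in this test. Both passed it when labels were exchanged only within a replicate number, the replicate block of the closing section. By replicate number, the means with and without uaf-1(n4588) were 1508 and 1346 in replicate 1, 1640 and 1496 in replicate 2, and 1684 and 1430 in replicate 3. With replicates 2 and 3 alone the difference was 199 (adjusted p = 0.0556). Loci that name no gene were also more numerous in the libraries with uaf-1(n4588), at 1158 ± 78 against 979 ± 84 (exact permutation test, p = 5e-04, adjusted p = 0.005 over 10 measures of the libraries, chosen after seeing the data). Their part in the counts of joined loci was not tested.

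Within backgrounds, uaf-1(n4588) exceeded N2 by 71.7 joined loci (exact permutation test, p = 0.6), the n5119 double mutant exceeded rbm-5(n5119) by 182 (p = 0.4 in the exact test), and the n5132 double mutant exceeded rbm-5(n5132) by 306 (exact p = 0.1, the smallest that 3 against 3 can give, with no overlap). The uaf-1(n4588) effect in rbm-5(n5132) minus that in N2 was 234 (exact permutation test, p = 0.085, adjusted p = 0.17 over 6 such tests), so a difference between backgrounds was not established. Libraries with an rbm-5 mutation averaged 1534 ± 191 joined loci (n = 12) and those without one 1484 ± 113 (n = 6), a difference of 50.8 (permutation test within uaf-1 backgrounds, p = 0.487, adjusted p = 0.812). The joined share of start FPKM was 22.5 ± 7.1% with uaf-1(n4588) and 21.3 ± 4.6% without it (SD, n = 9 each; exact permutation test, p = 0.677), and 22.1 ± 6.4% with an rbm-5 mutation and 21.6 ± 4.9% without one (n = 12 and 6; exact permutation test, p = 0.913).

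The layouts shared the direction of the uaf-1(n4588) difference. Tandem coding loci numbered 647 ± 96 with uaf-1(n4588) and 539 ± 79 without it, and loci of 1 coding gene with noncoding genes 666 ± 47 and 614 ± 38 (SD, n = 9 each; exact permutation tests, adjusted p = 0.101 for each over 10 tests). Among neighbouring gene pairs, those with a gap of 300 bases or more were joined in 4.74 ± 0.77% with uaf-1(n4588) and in 3.62 ± 0.67% without it (n = 9 each), a difference of 1.11 percentage points (exact permutation test, p = 0.0103, adjusted p = 0.041 over 4 tests). This call was lost under 12 of 20 alternatives, among them replicates 2 and 3 alone, where the difference was 1.24 (adjusted p = 0.0741). Pairs with a smaller gap were joined in 23.0 ± 4.4% with uaf-1(n4588) and 19.8 ± 3.5% without it (n = 9 each; exact permutation test, adjusted p = 0.249). No rbm-5 difference passed in either class (adjusted p = 0.618 and 0.699).

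The start FPKM of a joined set could be compared between strains only where enough libraries listed exactly the same genes. In the fit over all gene sets, single genes included, 256 of the 7610 joined sets were tested for uaf-1(n4588) over its 3 backgrounds. Of these, 3 were called at an adjusted p under 0.05, all higher with uaf-1(n4588) (limma, Benjamini-Hochberg). The background was 0.674% of 7416 sets called, 0.391% as higher, and 1.17% of the joined sets were called. For the rbm-5 mutations over both uaf-1 backgrounds, 1 of 256 joined sets was called, with 0.0405% of all sets called. On the log2(FPKM + 1) scale, the median difference of the joined sets was -0.03 for uaf-1(n4588) and -0.14 for the rbm-5 mutations, and of all sets -0.03 and -0.14.

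Between pairs of strains the counts were as small. In uaf-1(n4588) against N2, 3 of 466 joined sets were called, 2 higher and 1 lower (0.213% of all sets called, 0.146% higher and 0.0674% lower). In rbm-5(n5119) against N2 it was 1 of 430 (0.0334% of all), and in rbm-5(n5132) against N2 1 of 473 (0.0437% of all). In the n5132 double mutant against uaf-1(n4588), 1 of 466 was called, as lower (0.0923% of all, 0.0692% lower). In the n5119 double mutant against uaf-1(n4588) it was 0 of 503 by limma (0.023% of all), with 17 (3.38%) at an unadjusted p under 0.05, against 4.86% of all 8701 sets. With 0 to 3 calls per contrast, the joined sets were too few to read their share against the background. Contrasts with N2 share the N2 libraries.

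The locus of R10D12.13 and sao-1 had higher start values with uaf-1(n4588). In whole embryos, more RNA per cell and more cells of a type cannot be told apart. Both are coding genes on the plus strand of chromosome V (WBcel235 positions 13962417–13965801), 85 bases apart, and sao-1 is named as a suppressor of the Notch pathway gene aph-1. The start, in R10D12.13 in 16 of 17 libraries, was at 218, 97.1 and 90.2 FPKM in the n5119 double mutant, 46.6 and 69.0 FPKM in replicates 1 and 2 of the n5132 double mutant, and 137, 99.7 and 121 FPKM in uaf-1(n4588). It was at 29.7, 30.2 and 34.7 FPKM in rbm-5(n5119), 37.9, 50.9 and 56.0 FPKM in rbm-5(n5132), and 23.4, 41.4 and 32.4 FPKM in N2. The libraries with uaf-1(n4588) lay above the others in the N2 and n5119 backgrounds, and the groups overlapped in the n5132 background, where replicate 3 of the double mutant listed sao-1 alone at 76.9 FPKM. The log2 difference for uaf-1(n4588) was 1.36 (SE 0.20, adjusted p = 0.0043, limma over 3 backgrounds), and against N2 alone it was 1.87 (SE 0.32, adjusted p = 0.031, limma).

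The end of the same locus lay in sao-1, and its difference did not pass the test. It was at 152, 210 and 194 FPKM in the n5119 double mutant, 186 and 128 FPKM in the n5132 double mutant and 77.1, 144 and 196 FPKM in uaf-1(n4588). It was at 170, 178 and 192 FPKM in rbm-5(n5119), 144, 188 and 161 FPKM in rbm-5(n5132), and 111, 182 and 174 FPKM in N2. These ranges overlapped between strains. The log2 difference of the end was -0.09 (SE 0.18, limma, adjusted p = 0.975). The log2 ratio of start to end was -0.62 ± 0.91 with uaf-1(n4588) (n = 8) and -2.16 ± 0.34 without it (n = 9), given without a test because the set was picked for its start. The ranges overlapped, at -1.97 to 0.82 and -2.52 to -1.51. Over 3 backgrounds the start difference kept its call under 19 of the 21 alternatives that could be fitted, losing it with libraries scaled to 1 median (limma, adjusted p = 0.134) and with end entries. Against N2 it kept its call under 10 of 25.

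**Figure D5:**
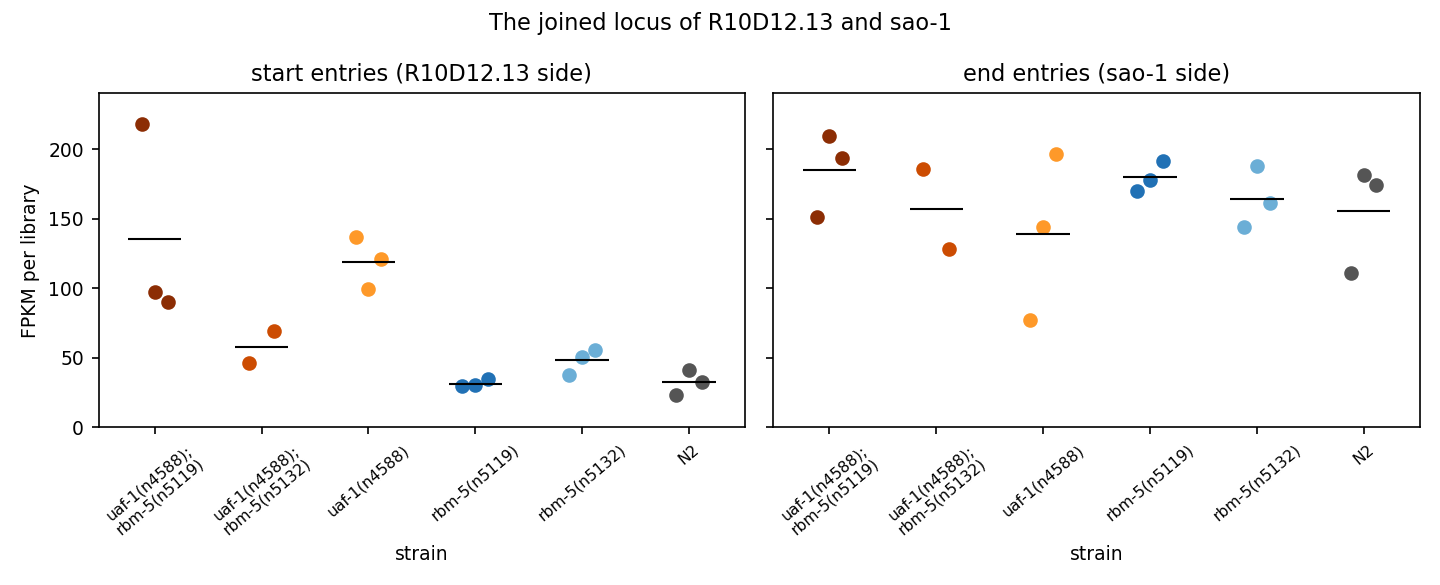
FPKM per library of the start entries (left panel) and the end entries (right panel) of the locus joining R10D12.13 and sao-1, for the 6 strains, with 1 point per library that lists the joined set and a line at the strain mean. Starts reach 90.2–218 FPKM in the n5119 double mutant and 99.7–137 FPKM in uaf-1(n4588), against 23.4–41.4 FPKM in N2, while ends span 77.1–210 FPKM with overlap between strains.

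The other called sets rested on less. The set of F36H5.4 and the MATH-domain gene math-28 (chromosome II, gap 453 bases) had a start of 62.2–98.5 FPKM in 8 libraries with uaf-1(n4588) and 37.7–65.5 FPKM in 8 without it. In the libraries left out of these ranges math-28 lay in larger sets, at 22.6 FPKM in replicate 1 of the n5132 double mutant (without F36H5.4) and at 12.2 FPKM in replicate 3 of N2. The log2 difference was 0.66 (SE 0.13, adjusted p = 0.040, limma), and 6 of 19 alternatives kept the call. Its end, in math-28, was at 0–4.85 FPKM.

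DL2.2, an ncRNA gene, and dnj-14, a DnaJ-family chaperone gene, neighbour each other on the minus strand of chromosome X. As a joined set their start was at 110, 119 and 82.4 FPKM in the n5119 double mutant, 36.1 and 110 FPKM in replicates 1 and 2 of the n5132 double mutant, and 122, 106 and 97.4 FPKM in uaf-1(n4588). It was at 39.4 and 112 FPKM in replicates 2 and 3 of rbm-5(n5119), at 56.5 and 111 FPKM in replicates 1 and 2 of rbm-5(n5132), and listed at 0 in replicates 2 and 3 of N2. The set passed in 5 contrasts (limma, adjusted p = 0.0059 for uaf-1(n4588) over 3 backgrounds, 0.013 for the rbm-5 mutations, and 4.0e-04, 0.0056 and 0.0019 for uaf-1(n4588), rbm-5(n5119) and rbm-5(n5132) against N2). All of these rest on the same 2 N2 libraries at 0, so no fold is given. In the remaining libraries dnj-14 was listed alone: at 106 FPKM in replicate 3 of the n5132 double mutant, and at 0 in replicate 1 of rbm-5(n5119), replicate 3 of rbm-5(n5132) and replicate 1 of N2. A value of 0 was thus not confined to N2.

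F22F4.4 with the piRNA gene 21ur-15070, on chromosome X, had 112 FPKM in replicate 1 of the n5132 double mutant, was listed at 0 in all 3 libraries of uaf-1(n4588), and had 166 and 89.1 FPKM in replicates 2 and 3 of N2 (uaf-1(n4588) against N2, limma, adjusted p = 0.010). The call was kept under 20 of the 23 alternatives that could be fitted. It was lost with a replicate block and, by limma, without replicate 1 (adjusted p = 0.051) or replicate 3 (adjusted p = 0.054) of uaf-1(n4588). Without replicate 2 or replicate 3 of N2 the set could not be fitted. Listed alone or in other combinations, F22F4.4 was at 0, 2.08 and 3.79 FPKM in the n5119 double mutant, at 0 and 1.35 FPKM in replicates 2 and 3 of the n5132 double mutant, at 505, 159 and 0 FPKM in rbm-5(n5119), at 0 in all 3 libraries of rbm-5(n5132), and at 21.0 FPKM in replicate 1 of N2. Zeros and values above 100 FPKM thus both occurred within rbm-5(n5119).

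K07E3.4 and dao-3, a gene named for its expression in dauer larvae and aging adults, lie 191 bases apart on the minus strand of chromosome X. The start of the joined set was at 34.5, 22.3 and 24.2 FPKM in the n5132 double mutant, against 127 and 146 FPKM in replicates 2 and 3 of uaf-1(n4588), whose replicate 1 listed K07E3.4 alone at 30.0 FPKM. The log2 difference was -2.31 (SE 0.27, adjusted p = 0.025, limma), with the call kept under 13 of 23 alternatives and lost with replicates 2 and 3 alone (adjusted p = 0.099). The entries that were summed differed: the 3 libraries of the n5132 double mutant listed starts and ends in K07E3.4 only, whereas the other 9 libraries with this set also listed a start in dao-3 at 84.4–146 FPKM and an end in dao-3 at 65.0–112 FPKM. Starts in K07E3.4 in those 9 libraries were at 0–19.6 FPKM.

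For the n5119 double mutant against uaf-1(n4588), no joined set passed, and the 3 sets of smallest p are described by their values. The microtubule end-binding genes ebp-1 and ebp-3, closely similar copies whose reads may be shared, had 156, 223 and 227 FPKM in the double mutant and 55.6, 83.1 and 94.1 FPKM in uaf-1(n4588) (log2 difference 1.38, SE 0.36, limma, adjusted p = 0.83). The ncRNA gene Y57A10A.44 with sinh-1 had 18.5 and 15.1 FPKM in replicates 1 and 2 of the double mutant and 7.27, 6.14 and 7.38 FPKM in uaf-1(n4588). In replicate 3 of the double mutant these genes lay in a larger set with a start of 9.05 FPKM. The piRNA gene 21ur-11826 with unc-24, a stomatin-family gene, had 8.78, 13.0 and 21.2 FPKM in the double mutant and 300, 29.7 and 27.5 FPKM in uaf-1(n4588).

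Whether a set was listed at all was compared as well. Of 2438 sets listed in 3 to 15 libraries, 0 were called for uaf-1(n4588) and 0 for the rbm-5 mutations (Fisher's exact test, smallest adjusted p = 1; background 0%). The smallest p that Fisher's exact test can give here is 4.1e-05 for uaf-1(n4588) and 5.4e-05 for the rbm-5 mutations. Over 2438 sets, a single set split completely between the groups could not pass alone, so the absence of calls does not show equal listing. At an unadjusted p under 0.05 there were 81 sets for uaf-1(n4588) (3.32% of those tested), 60 listed more often and 21 less often. Over all sets tested, 1185 were listed more often with uaf-1(n4588) and 896 less often. For the rbm-5 mutations there were 51 sets (2.09%), 16 more often and 35 less often, against 1031 and 902 over all sets tested. The sets named next were picked from these data for the size of their difference, and none passed. The RhoGAP gene rga-5 with 5 piRNA genes, and the nuclear hormone receptor gene nhr-88 with the pseudogene ZC239.1, were each listed as exactly these sets in 7 of 9 libraries with uaf-1(n4588) and 0 of 9 without it. Y64G10A.7 with 4 piRNA genes was listed in 6 and 0, Y37A1B.5 with 3 piRNA genes in 0 and 6, and a set of 5 piRNA genes including 21ur-930 in 9 and 3. An exact set is not the same as a shared locus. Once larger sets were counted, the genes of the rga-5 set shared a locus in 9 libraries with uaf-1(n4588) and 3 without it, those of the Y64G10A.7 set in 9 and 0, and those of the Y37A1B.5 set in 9 and 9, while the nhr-88 and 21ur-930 sets kept 7 and 0, and 9 and 3. For the rbm-5 mutations, 21ur-15070 with F22F4.4 was listed in 1 of 12 libraries with a mutation and 5 of 6 without one, and the fucosyltransferase gene fut-8 with C10F3.7, and Y60A3A.21 with Y60A3A.23, in 0 of 12 and 4 of 6.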

How the data were processed

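RNA-seq event lists of 18 embryo libraries were used, 1 list per library. The deposited values are FPKM, per the file headers. Reads were mapped with TopHat2 2.0.12 and Bowtie2 to WBcel235, per the submitters' processing notes. The assembler, the event caller and any scaling between libraries are not given in the sources used here, and loci were numbered separately in each library. A locus was joined when its reference-gene column named 2 or more genes. Gene positions came from Ensembl release 115 (WBcel235). Start FPKM was summed over loci with the same gene set in a library.

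Sets were tested where every strain compared had at least 2 libraries with the set and the mean was at least 1 FPKM, on log2(FPKM + 1) with limma 3.58.1 in R 4.3.3, with an intensity trend and 1 mean per strain over all 18 libraries. Fold changes on this scale understate those of low sets. Benjamini-Hochberg adjustment ran over all sets of a contrast, single genes included. Numbers per library were compared by exact permutation within backgrounds, and listing by Fisher's exact test; all tests were two-sided. The models were checked on simulated data. Alternatives were leaving out each library, replicates 2 and 3 alone, a replicate block, another pseudocount of 0.1, no minimum, scaling to 1 median, end entries, the libraries of the contrast alone, and further ones listed with their values in the closing section. Values listed at exactly 0 can be failed estimates and were kept.

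Sets were named by rule: the 10 highest in all 18 libraries, the 5 with most genes in 9 or more libraries, called sets (or the 3 with the smallest p), the 5 and 3 largest differences in listing, textbook operons, and sets naming rbm-5, uaf-1, unc-93 or tos-1. The members and lists were chosen with earlier results of these data known.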

Additional observations from a re-analysis of the deposited data

Results flagged for a closer look

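The joined share of summed start FPKM stood far from the others in 2 of 15 groups checked, and chance flags about 1 in 20 groups. In replicate 1 of the n5119 double mutant it was 41.0%, with the next of the 9 libraries carrying uaf-1(n4588) at 21.9%. In replicate 1 of N2 it was 31.1%, with the next of the 6 libraries without an rbm-5 mutation at 21.9%. The locus naming C01F6.9 had a start of 459192 FPKM in the first of these libraries and 144232 FPKM in the second. Without that locus the shares were 23.1% and 24.2%.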

How the results depend on the processing

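The counts of joined loci and their share kept the direction of the uaf-1(n4588) difference under all 24 alternatives. Both moved past the threshold with a replicate block (186 loci and 1.23 percentage points, adjusted p = 0.0117, with uaf-1(n4588) higher in 9 of 9 same-numbered pairs) and without the 2 libraries with most entries at 0 (225 and 1.46, an alternative chosen after seeing the data). Leaving out 1 library gave 154–228 loci (adjusted p 0.0173–0.151) and 1.03–1.49 points, past the threshold without replicate 1 of the n5119 double mutant (228 loci), replicate 1 of uaf-1(n4588) (199), replicate 2 of rbm-5(n5119) (219), or replicates 2 (205) or 3 (197) of N2. Mean correlation of deviations was 0.072 between libraries of equal replicate number (range -0.36 to 0.41) and -0.035 between those of different numbers (-0.42 to 0.36), over 4281 sets. Summed start FPKM was higher in every replicate 1 library than in replicates 2 and 3. Whether equal numbers mark a shared batch is not given by the labels. Wider-gap pairs gave 1.24 with replicates 2 and 3 alone and 0.952–1.32 without 1 library.

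The difference in the joined share of start FPKM reversed for uaf-1(n4588) without replicate 1 of the n5119 double mutant (-0.914) and without the 2 libraries with most zeros (-1.51), with a range of -0.914 to 2.38 without 1 library. For the rbm-5 mutations it ranged from -1.22 to 2.21 and reversed without the C01F6.9 loci (-0.927), without the 2 libraries (-1.07), and without replicate 1 of the n5119 double mutant (-1.22), replicate 1 of uaf-1(n4588) (-0.0178), or replicates 2 (-0.0866) or 3 (-0.751) of N2.

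Counts of called joined sets moved as follows. Some lower counts arose because a set left with 1 listing library in a strain could not be fitted. The 3 for uaf-1(n4588) were 0 with replicates 2 and 3 alone, where none of the 3 sets could be fitted, and 0 with scaling to 1 median, where all 3 were fitted and lost. Without 1 library the count was 0–3, and at least 1 of these sets could not be fitted in 10 of 18 such fits. R10D12.13 with sao-1 and DL2.2 with dnj-14 kept their call in all of the 16 and 10 that could be fitted. For DL2.2 with dnj-14 the fits without replicate 2 or without replicate 3 of N2, both at 0, could not be run. Leaving out 1 library thus could not test the values on which that call rests. The 1 for the rbm-5 mutations was 0 with a replicate block, with replicates 2 and 3 alone (not fitted), with no minimum and with scaling (0–1, each 0 without 1 library being a set not fitted). In uaf-1(n4588) against N2, 3 became 1 with the replicate block (0–4). In rbm-5(n5119) against N2, 1 became 0 with the libraries of the contrast alone (0–1, each 0 without 1 library again not fitted). In rbm-5(n5132) against N2 it became 0 with these, with replicates 2 and 3 alone (not fitted) and with scaling (0–1, likewise). In the n5132 double mutant against uaf-1(n4588) it became 0 with the block, replicates 2 and 3 alone, end entries and the contrast's libraries, and 2 with a pseudocount of 0.1 (0–1). The difference at R10D12.13 and sao-1 reversed with end entries (-0.095 over 3 backgrounds, -0.23 against N2). Listing gave 0 calls throughout. Other causes were not tested. Depth is unknown, so the precision of single values cannot be given.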
